A study of Mus musculus with 30 samples.

Results

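The genes described here are 10 immediate early genes taken by their symbols: Egr1, Egr2, Egr3, Ier2, Ier3, Klf4, Klf6, Btg2, Nr4a2 and Nr4a3. Every non-control probe that the array files assign to one of these symbols was taken, which gave 11 probes, with 2 for Nr4a2. Of the 10 genes, 8 passed the filter on dim probes and were tested among 25169 genes. Egr3 and Nr4a3 did not pass it.

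The RNA came from peripheral blood mononuclear cells (PBMC), the lymphocyte and monocyte fraction of blood, of female C57BL/6 mice at 6 weeks of age, all under xylazine and ketamine anaesthesia. OA mice received oleic acid, a fatty acid used to produce acute lung injury, at 1.2 µl per g of body weight, and the other mice received physiological serum. Both were given as 200 µl into the tail vein, so the serum mice share the anaesthesia and the injection. The OA groups held 3, 3, 3, 2, 3 and 3 mice at 1, 1.5, 3, 4, 18 and 24 h, and the serum groups held 3, 3, 2, 1, 2 and 2 mice at the same times. Each of the 30 arrays was taken as 1 mouse, and p-values measure the spread between these arrays.

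Immediate early genes are transcribed within minutes of a stimulus from factors that the cell already holds, such as serum response factor (SRF) and its partners downstream of MAP kinases, CREB and NF-kB. Most of their products are transcription factors or brakes on the pathway that induced them, and their messages are short-lived. In blood cells they respond to adhesion, cytokines, antigen and handling, and Klf4 is also known as a factor of the monocyte lineage.

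At 1, 1.5, 3, 4 and 18 h none of the 8 tested genes passed the test between OA and serum mice, and neither did any other gene of the array (0% called at each of these times). Klf4 and Klf6 passed it at 24 h. At 1 to 3 h the largest differences were those of Egr1 and Egr2, both zinc finger transcription factors. They averaged 1.45 and 1.51 log2 units above serum without passing the test. Egr2 was well above background on 7 of 17 OA arrays and 1 of 13 serum arrays, and so passed the filter mainly through OA arrays. Its mean was 0.04 with another background correction (normexp). At 24 h Klf4 was 2.40 and Klf6 1.52 log2 units higher in OA mice than in serum mice. For both genes the serum mean at 24 h was the lowest of the 12 groups, and the OA mean was near that at 18 h. At 24 h 7483 of the 25169 genes passed, and 1 of the 2 serum arrays stood apart from the rest. Both calls were lost without that serum array, with slide as a fixed block and with the long intergenic RNA signal as a covariate.

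The promoters of 7 of the 10 genes are in the RefSeq table used here (GRCm38.p6, 250 bases before to 50 after each start, 11 windows), and those of Egr1, Egr3 and Ier2 were not used here. Stretches of 4 promoters are shown because they hold the letters read by the factors named above, in genes that the results turn on. Each is written 5′ to 3′ along its gene, and capitals mark the match. Egr2 has a CArG box, the letters bound by SRF, in each of 2 promoter stretches on chromosome 10, at chr10:67537464-67537533 and chr10:67537767-67537836 (plus strand).
Egr2, first stretch: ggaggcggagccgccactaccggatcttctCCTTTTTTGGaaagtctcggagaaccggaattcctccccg
Egr2, second stretch: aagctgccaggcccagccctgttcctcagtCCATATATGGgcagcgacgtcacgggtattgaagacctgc
Btg2 has a full cAMP response element (TGACGTCA), which CREB binds, at chr1:134079284-134079351 on the minus strand.
Btg2: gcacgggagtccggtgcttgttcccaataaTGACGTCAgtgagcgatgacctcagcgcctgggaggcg
Ier3 has an NF-kB site, read on the opposite strand, at chr17:35821591-35821660 on the plus strand.
Ier3: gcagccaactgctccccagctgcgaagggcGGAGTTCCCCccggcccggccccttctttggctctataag
Klf4 has 2 matches to the EGR consensus site (GCGNGGGCG), both on the opposite strand, and the one nearer the start is in capitals, at chr4:55532631-55532699 on the minus strand.
Klf4: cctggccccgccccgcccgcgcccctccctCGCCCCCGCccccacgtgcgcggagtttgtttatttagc

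The letters were searched on both strands of all 32851 promoter windows. A CArG box was found in 1.63% of them and, among the 7 genes, in Egr2 alone. A full cAMP response element was found in 1.79% of windows and in Btg2 alone, and its first letters, TGACG, which it contains, in 20.8% of windows and in Btg2, Egr2, Klf4, Nr4a2 and Nr4a3. An NF-kB site was found in 4.51% of windows and in Ier3 alone, and an EGR consensus site in 5.55% of windows and in Btg2, Klf4 and Nr4a2. TGANTCA was found in 7.81% of windows and in none of the 7 genes, CACCC, which KLF factors bind, in 57.5% and in Egr2, Nr4a2 and Nr4a3, and TATAAA in 13.6% and in Nr4a2. A match describes these letters and shows neither binding nor a cause.

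Levels are log2 intensities relative to the 75th percentile of the same array, so that 0 is a probe as bright as that percentile and a difference of 1 is a 2-fold difference. They are not compared between probes. That percentile lay between 40.2 and 152 intensity units, and the share of probes well above background lay between 35.4% and 65.1%. The PBMC label was set against marker lists. Group means were 4.28 to 4.88 for 11 T cell markers, 2.78 to 4.56 for 10 B cell markers and 1.28 to 3.35 for 11 monocyte markers. They were also 3.45 to 5.12 for 12 neutrophil markers, 4.14 to 6.74 for 12 platelet markers and 3.95 to 5.50 for 10 erythroid markers. Transcripts of granulocytes, platelets and erythroid cells were thus present too. In such mixed cells fewer cells of a type and less RNA per cell cannot be told apart. The median correlation with the other arrays was under 0.9 for 3 arrays: 0.837 for replicate 2 of OA at 4 h, 0.804 for replicate 1 of serum at 24 h and 0.890 for replicate 3 of serum at 1.5 h. Signal from probes for long intergenic RNA, relative to always-detected probes, averaged -2.75 in OA mice at 4 h and -2.65 in serum mice at 24 h, against -4.36 to -3.48 in the other groups.

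Egr1, a zinc finger factor and a target of SRF, had levels of 0.21, 3.85 and 2.16 in OA mice at 1 h, against -0.79, -0.33 and 2.31 in serum mice. The groups overlapped through 1 serum mouse, which lay above 2 of the 3 OA mice. At 1.5 h Egr1 was at 3.99, 2.96 and 4.06 in OA mice and at 2.26, 1.96 and 2.94 in serum mice. At 3 h it was at 1.93, 2.70 and 2.56 in OA mice and at 1.54 and 0.47 in serum mice. At both of these times every OA mouse lay above every serum mouse. At 4 h it was at -0.35 and -0.68 in OA mice and at -0.09 in the single serum mouse, whose array is assumed to vary like the others. Both OA mice were below that serum mouse. At 18 h it was at 0.14, 2.73 and -0.18 in OA mice and at -0.84 and 1.2 in serum mice. At 24 h it was at -1.29, 0.46 and 1.18 in OA mice and at -1.88 and -0.78 in serum mice. OA and serum mice overlapped again at 18 and 24 h, and the serum level of -1.88 was not well above background.

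The difference in Egr1, OA minus serum, was 1.68 (SE 0.90, limma adjusted p = 0.822) at 1 h. It ran between 0.79 without OA replicate 2 and 2.64 without serum replicate 3 of that time. It was 1.28 (SE 0.90, adjusted p = 0.566 in limma) at 1.5 h and 1.39 (SE 1.01, adjusted p = 0.709) at 3 h. Averaged over these 3 times it was 1.45 (95% interval 0.32 to 2.58, limma adjusted p = 0.166). At 4, 18 and 24 h it was -0.42 (SE 1.36), 0.71 (SE 1.01) and 1.44 (SE 1.01). Arrays that shared a slide gave -0.55 at 1 h (1 OA and 2 serum mice), 1.01 and 1.12 at 1.5 h on 2 slides, and 2.23 at 3 h (1 mouse each), so the 1 h difference did not hold within the slide that carried both treatments. The other 2 OA mice at 1 h were on a slide that held OA arrays only. That slide carried 5 OA arrays, from 1, 3, 18 and 24 h. It was the only slide scanned on the second of 2 scan days, so no serum array shares that day.

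Egr1 was highest at 1.5 h in both treatments. In OA mice 1.5 h was highest (3.67 ± 0.61, SD, n = 3), followed by 3 h (2.40 ± 0.41, n = 3) and 1 h (2.07 ± 1.82, n = 3), and 4 h was lowest (-0.52 ± 0.23, n = 2). In serum mice 1.5 h was also highest (2.38 ± 0.50, n = 3), and 24 h was lowest (-1.33 ± 0.78, n = 2). The OA groups at 1 and 3 h did not differ beyond their spread.

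Egr2, a relative of Egr1 with roles in lymphocytes and macrophages, was near the limit of detection. It was well above background on 7 of 17 OA arrays and 1 of 13 serum arrays, and so passed the filter mainly through OA arrays. It had levels of -3.60, -0.96 and -2.41 in OA mice at 1 h, against -3.73, -4.37 and -3.23 in serum mice. At 1.5 h it was at -1.67, -1.35 and -1.26 in OA mice and at -2.60, -4.30 and -2.37 in serum mice. At 3 h it was at -2.72, -2.85 and -2.37 in OA mice and at -4.46 and -3.68 in serum mice. The groups overlapped at 1 h through a single low OA mouse and did not overlap at 1.5 or 3 h. On the serum arrays at 1 and 3 h no level was well above background, and at each time 2 of the 3 OA levels were. Serum levels were then set no lower than the dimmest probe well above background on the same array. Against these the OA mean was 1.81-fold higher at 1 h and 1.55-fold higher at 3 h. These folds are not lower bounds, because an OA level at each time was not well above background either. The measured differences had adjusted p = 0.822 and 0.629 from limma. With normexp correction they were -0.0059 at 1 h and -0.11 at 3 h.

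The mean Egr2 difference over 1, 1.5 and 3 h was 1.51 (95% interval 0.79 to 2.23), OA minus serum. The limma adjusted p was 0.139, and it is no support of its own, because the probe entered the test through the OA arrays. The value depended on the background correction, and with normexp it was 0.04. Without replicate 3 of serum at 1 h it was 1.60 (limma adjusted p = 0.0489), and 128 genes passed. On shared slides the 1 h difference was -0.11, the 1.5 h differences were 2.95 and 1.11, and the 3 h difference was 0.83. At 4 and 18 h Egr2 was well above background in no mouse of either treatment. At 24 h it was at -2.74, -3.02 and -2.89 in OA mice and at -3.50 and -3.51 in serum mice, without overlap, and only the first of these was well above background.

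Egr3 was well above background on 1 array of 30, OA 4 h replicate 2, where it was at -1.18. Its levels ran between -5.51 and -1.18 in OA mice and between -5.00 and -2.29 in serum mice. No fold is given, because both treatments are at or near background.

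**Figure D1:**
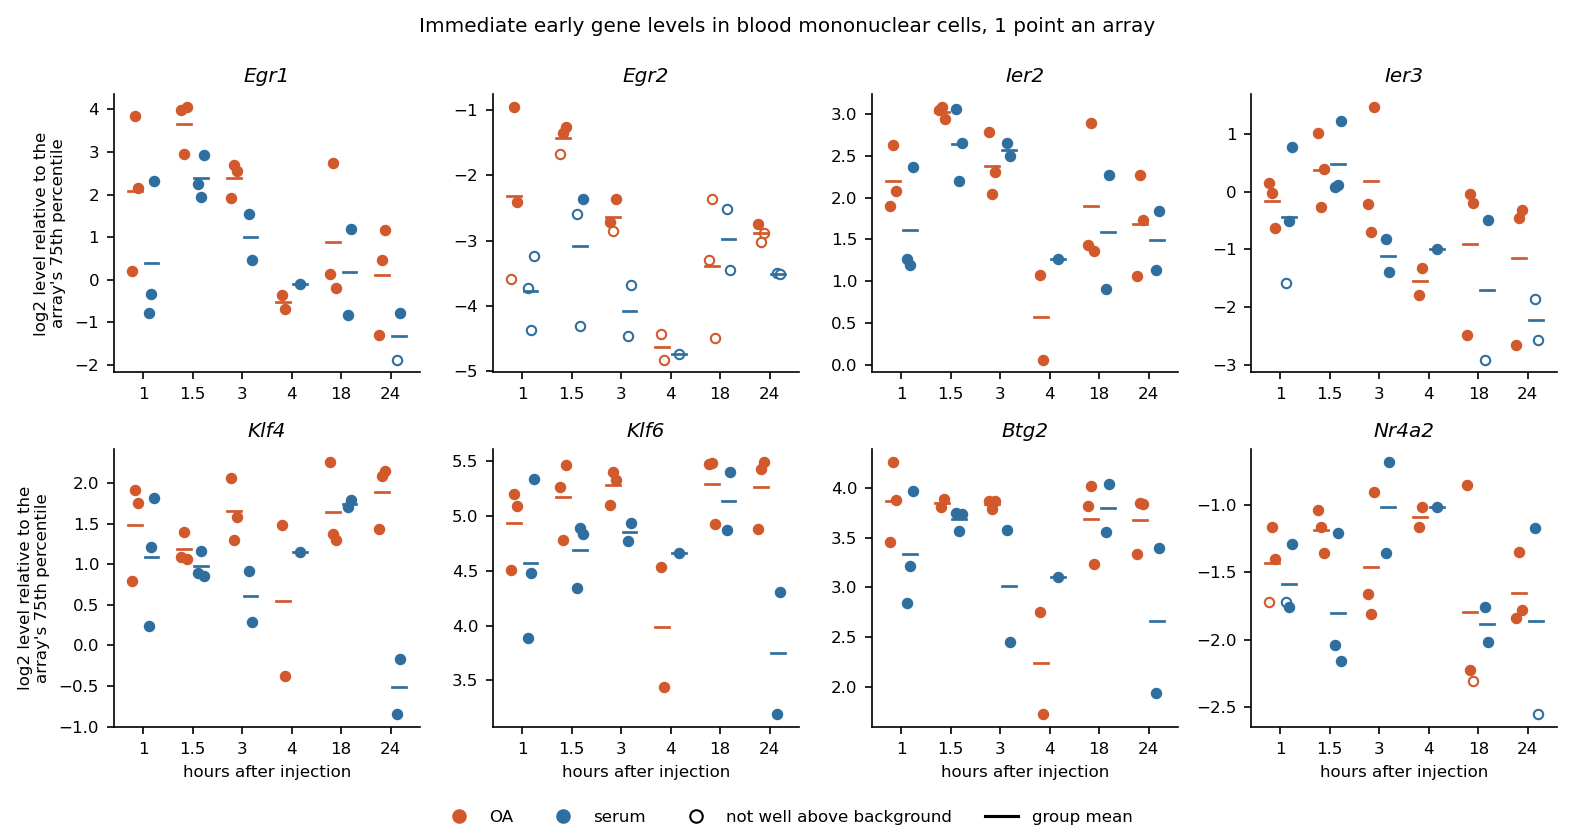
Levels of the 8 tested genes (vertical axes, log2 relative to the array's 75th percentile) against hours after injection (categories), with OA mice left of serum mice at each time. Each point is an array, open points were not well above background, and bars are group means. Egr1 and Egr2 sit highest at 1.5 h in OA mice, and Klf4 and Klf6 are lowest in the serum mice at 24 h.

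Ier2, a nuclear protein of the immediate early response, had levels of 1.90, 2.63 and 2.08 in OA mice at 1 h, against 1.27, 1.2 and 2.37 in serum mice. At 1.5 h it was at 3.04, 3.08 and 2.94 in OA mice and at 3.06, 2.20 and 2.65 in serum mice. OA and serum mice overlapped at both times. At 3 h it was at 2.79, 2.04 and 2.31 in OA mice and at 2.65 and 2.49 in serum mice. At 4 h it was at 1.08 and 0.06 in OA mice and at 1.27 in the serum mouse, above both. At 18 h it was at 1.43, 2.89 and 1.36 in OA mice and at 0.91 and 2.27 in serum mice. At 24 h it was at 1.06, 2.27 and 1.73 in OA mice and at 1.14 and 1.84 in serum mice. Except at 4 h the treatments overlapped, and 1.5 h was the highest time in both. The mean difference over 1, 1.5 and 3 h was 0.26 (95% interval -0.31 to 0.83, limma adjusted p = 0.549), and that at 24 h was 0.20 (95% interval -0.87 to 1.26). Ier2 was well above background on all 30 arrays.

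Ier3, an early response protein that acts on survival and NF-kB signalling, had levels of -0.21, -0.69 and 1.47 in OA mice at 3 h, against -0.82 and -1.40 in serum mice. Every OA mouse was above both serum mice at that time. The difference was 1.29 (SE 0.86), with a limma adjusted p of 0.688. At 1 and 1.5 h the groups overlapped, with differences of 0.27 (SE 0.77) and -0.09 (SE 0.77). At 24 h Ier3 was at -2.66, -0.46 and -0.31 in OA mice and at -1.86 and -2.58 in serum mice. The OA mouse at -2.66 was below both serum mice, so the groups overlapped. Neither serum level was well above background. With each set no lower than the dimmest probe well above background on its array, OA was 2.08-fold higher on average. The measured difference was 1.08, with a limma adjusted p of 0.325. It ran between 0.66 and 1.83 with single arrays left out, and with normexp correction it was 0.12. The 2.08-fold is therefore not a lower limit. Over all times Ier3 was well above background on 17 of 17 OA arrays and 9 of 13 serum arrays.

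Klf4, a zinc finger factor that promotes monocyte differentiation and restrains proliferation, had levels of 1.43, 2.08 and 2.15 in OA mice at 24 h, against -0.85 and -0.17 in serum mice. All 3 OA mice lay above both serum mice, and the serum values were the lowest of the 13 serum arrays. The difference was 2.40 (95% interval 1.36 to 3.45, limma adjusted p = 0.0130), which is a 5.29-fold difference. Its probe lies at chr4:55540167-55540226 (mm9, from the array files).

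Klf4 in the other OA groups averaged between 0.55 (4 h) and 1.65 (3 h), and in the other serum groups between 0.60 (3 h) and 1.74 (18 h). The 24 h OA mean, 1.89 ± 0.40 (SD, n = 3), was within the spread of the OA group at 18 h, 1.64 ± 0.54 (SD, n = 3). The 24 h serum mean, -0.51 ± 0.48 (SD, n = 2), stood apart from the 18 h serum mean of 1.74 ± 0.06 (SD, n = 2). At 1 h Klf4 was at 0.79, 1.92 and 1.76 in OA mice and at 0.24, 1.21 and 1.81 in serum mice. At 1.5 h it was at 1.09, 1.39 and 1.07 in OA mice and at 0.90, 1.16 and 0.86 in serum mice. The treatments overlapped at both times. At 3 h Klf4 was at 2.07, 1.3 and 1.59 in OA mice and at 0.92 and 0.29 in serum mice, without overlap, and the difference of 1.05 (SE 0.50) had an adjusted p of 0.642 in limma.

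Klf6, a broadly expressed KLF factor and an activator of inflammatory genes in macrophages, had levels of 4.89, 5.43 and 5.50 in OA mice at 24 h, against 3.19 and 4.31 in serum mice. All OA mice were higher, and the serum mouse at 3.19 was replicate 1, the array with the lowest median correlation. The difference was 1.52 (95% interval 0.63 to 2.41, limma adjusted p = 0.0217), a 2.87-fold difference. At 1 h Klf6 was at 4.5, 5.21 and 5.09 in OA mice and at 3.88, 4.48 and 5.34 in serum mice, with overlap. At 4 h it was at 4.53 and 3.44 in OA mice and at 4.67 in the serum mouse, above both. At 18 h it was at 5.48, 5.48 and 4.93 in OA mice and at 4.87 and 5.41 in serum mice, with overlap. The 24 h OA mean, 5.27 ± 0.33 (SD, n = 3), thus lay close to that of OA mice at 18 h (5.29 ± 0.32, n = 3), and the 24 h serum mean, 3.75 ± 0.79 (SD, n = 2), was the lowest of the 12 groups. At 3 h Klf6 was at 5.10, 5.41 and 5.33 in OA mice and at 4.77 and 4.94 in serum mice. These groups did not overlap either, and the difference of 0.42 (SE 0.43) had an adjusted p of 0.797 in limma.

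Of all genes tested at 24 h, 13.1% passed in the direction of OA above serum and 16.6% in the other, so the 2 of 8 immediate early genes that passed stand beside a broad set of calls. Of the 7 genes other than Egr2, 2 were without overlap, OA higher (Klf4 and Klf6), as were 25.8% of all genes. Egr2 did not overlap either, which is no support, because its probe passed the filter mainly through OA arrays. At that time all 8 immediate early genes had differences above 0, as had 49.3% of all genes. The 7 members well above background on at least 15 arrays, which leaves out Egr2, had a median of 1.08, against 0.49 for all genes so filtered, 65.8% of which were above 0. With the long intergenic RNA signal as a covariate Egr1, Egr2, Ier2 and Btg2 were below 0. Of the 13 alternative settings, Ier2 was below 0 in 6, Nr4a2 in 3, and Egr2 in 2 of the 12 that kept it. Both serum mice at 24 h were on 1 slide that held no OA mouse of that time. OA replicate 1 at 24 h was on the slide of the second scan day, which held no serum array. With slide as a block the Klf4 difference was 1.90 (limma adjusted p = 0.134) and the Klf6 difference 1.5 (adjusted p = 0.155). Without serum replicate 1 they were 2.06 (adjusted p = 0.344) and 0.96 (adjusted p = 0.545), and 38 genes passed in place of 7483. With the long intergenic RNA signal as a covariate they were 1.27 (adjusted p = 0.811) and 0.64 (adjusted p = 0.994). Without replicate 1 of OA at 24 h the Klf6 difference was 1.71 (adjusted p = 0.0576) and 138 genes passed in limma. Without serum replicate 2 they were 2.74 and 2.08, both called, and 12952 genes passed.

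**Figure D2:**
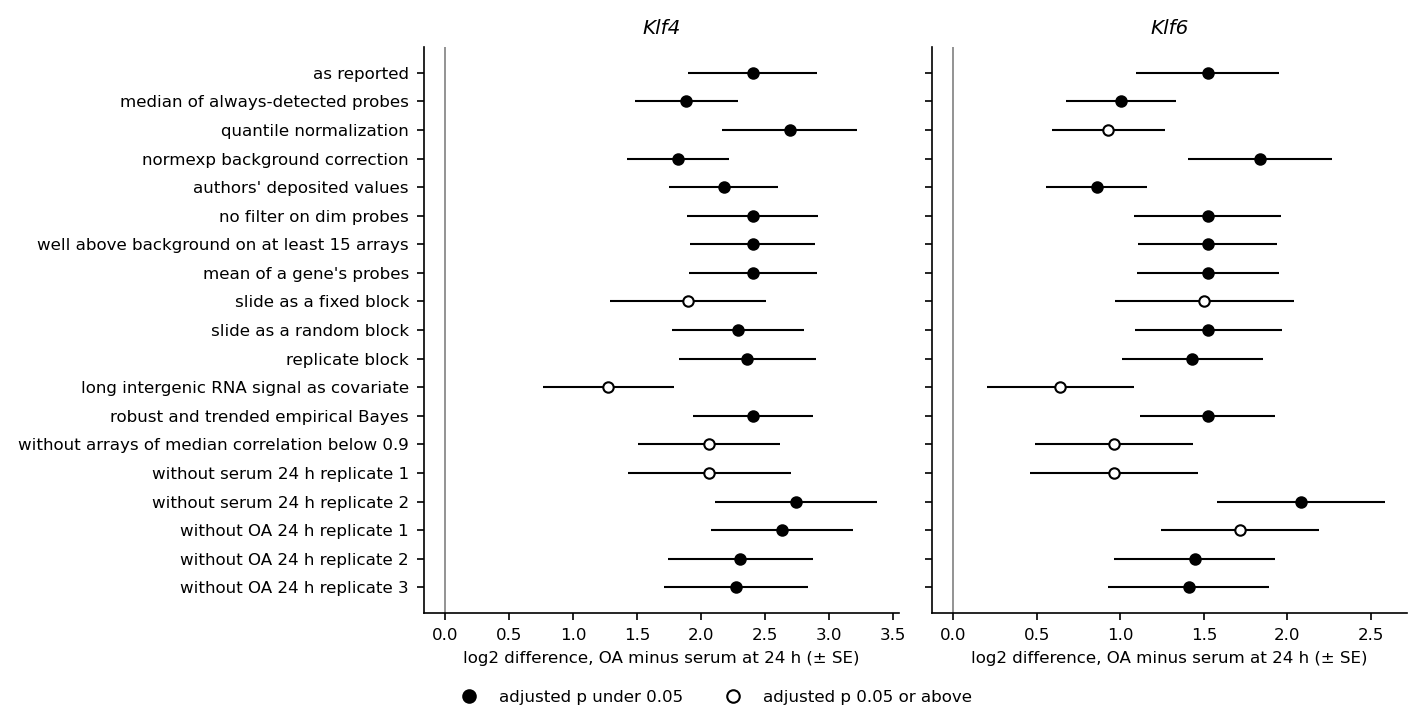
Difference in Klf4 (left) and Klf6 (right), OA minus serum at 24 h in log2 units with SE bars (horizontal axes), under the reported fit and each alternative (vertical axis). Filled points have an adjusted p under 0.05. Klf4 stays between 1.27 and 2.74 and Klf6 between 0.64 and 2.08, and open points are settings in which the call was lost.

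Markers of other cells differed between the treatments at 24 h as well. The 11 monocyte markers averaged between 3.16 and 3.30 on the OA arrays and were at 0.74 and 1.83 on the serum arrays. Of them 6 were called higher in OA mice, Cd300e by 3.52 and Csf1r by 2.36, and none lower. The serum mean at 24 h, 1.28, was the lowest of the 12 groups. The OA mean, 3.21, was near that of OA mice at 3 h, 3.13. The 10 B cell markers averaged between 4.13 and 4.46 on the OA arrays and were at 2.43 and 3.76 on the serum arrays. Of them 6 were called higher in OA mice, Cr2 by 1.25 and Pax5 by 1.06. Of 6 markers of lung epithelium and endothelium that passed the filter, 3 were called lower in OA mice than in serum mice. The differences were -7.00 for Sftpc, a lung surfactant protein gene, and -5.17 for Scgb1a1, a club cell secretoglobin gene. Their list averaged between -2.23 and -1.51 on the OA arrays and was at 1.82 and 0.82 on the serum arrays. The serum mean at 24 h, 1.32, was the highest of the 12 groups. The OA mean, -1.87, was the lowest, beside -1.58 in OA mice at 1 h. No T cell, NK cell, neutrophil, platelet or erythroid marker passed at 24 h. The part of these lists in the Klf4 and Klf6 differences was not tested.

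Btg2, an antiproliferative protein and a target of p53, had levels of 3.34, 3.85 and 3.84 in OA mice at 24 h, against 1.93 and 3.40 in serum mice. The lowest OA mouse lay below the higher serum mouse, so the groups overlapped. The difference was 1.01 (SE 0.45), with a limma adjusted p of 0.0854. It was 0.28 without serum replicate 1 and 1.74 without serum replicate 2, where it passed (limma adjusted p = 0.00892). At 1 h Btg2 was at 3.46, 4.26 and 3.88 in OA mice and at 2.84, 3.21 and 3.97 in serum mice, with overlap. At 3 h Btg2 was at 3.87, 3.78 and 3.87 in OA mice and at 3.58 and 2.45 in serum mice, without overlap, a difference of 0.82 (SE 0.45) with an adjusted p of 0.663 in limma. At 1.5 h it was at 3.81 and 3.89 in OA mice and at 3.75, 3.56 and 3.74 in serum mice, and the spot of OA replicate 3 carried the scanner's outlier mark and was left out. At 4 h Btg2 was at 2.75 and 1.72 in OA mice and at 3.10 in the serum mouse, above both.

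Nr4a2, an orphan nuclear receptor, was measured with 2 probes. On the brighter, levels at 1.5 h were -1.04, -1.16 and -1.36 in OA mice, against -2.04, -1.21 and -2.15 in serum mice. The lowest OA mouse lay below the highest serum mouse. At 3 h levels were -1.66, -1.81 and -0.91 in OA mice and -1.36 and -0.68 in serum mice. At 24 h they were -1.84, -1.35 and -1.78 in OA mice and -1.17 and -2.55 in serum mice. The treatments overlapped at both times too. The mean difference over 1, 1.5 and 3 h was 0.11 (95% interval -0.39 to 0.61, limma adjusted p = 0.777). On the dimmer probe it was -0.62 (SE 0.31, adjusted p = 0.256), so the probes disagreed in sign. The brighter probe was well above background on 26 arrays and the dimmer on 16.

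Nr4a3, a receptor of the same family, was well above background on none of the 30 arrays. Its levels ran between -5.79 and -3.68 in OA mice and between -5.34 and -3.51 in serum mice, which gives no fold. Nr4a1, which is of the same family and was not among the 10, was higher in OA mice than in serum mice at 24 h. The difference was 2.94 (SE 0.60), with a limma adjusted p of 0.0126.

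Averaged over 1, 1.5 and 3 h, all 8 tested genes were above 0, as were 47.1% of all genes tested. Without Egr2 the median was 0.49 for the other 7, against 0.12 for all genes well above background on at least 15 arrays, 59.5% of which were above 0. No gene of the array passed the test in that contrast in limma, whereas with normexp background correction 7028 genes passed, with Egr1, Klf6 and Btg2 among them and Egr2 not. In the reported fit Egr1 alone of these 7 had an unadjusted p under 0.05, as had 11.1% of all genes in that direction. That share includes genes dimmer than these 7. Klf4 (0.55), Btg2 (0.50), Ier3 (0.49) and Klf6 (0.42) lay between Egr1 and Ier2. Scaling by always-detected probes lowers the median of all genes in that contrast by 0.16 and turns Nr4a2 to -0.05, with the other 7 above 0. Marker lists also differed in that mean, with none of their genes past the test. All 12 platelet markers were above 0 (median 1.17), as were all 10 B cell markers (median 0.52) and 10 of 11 monocyte markers (median 0.51), while 4 of 6 lung markers were below 0 (median -0.87). The long intergenic RNA signal averaged -4.20, -4.19 and -4.02 in OA mice at 1, 1.5 and 3 h, against -3.58, -3.48 and -3.66 in serum mice. Their part was not tested.

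By single time, the arrays of the treatments did not overlap, with OA higher, in 2 of the 7 genes other than Egr2 at 1.5 h, where 16.6% of all genes did so, and in 5 of 7 at 3 h, where 16.4% did. At 1 h no gene of the 8 was without overlap (2.89% of all genes). At 4 h, with a single serum mouse, both OA mice lay below it in 6 of 8 genes and in 39.7% of all genes. The 5 genes at 3 h were Egr1, Ier3, Klf4, Klf6 and Btg2, and Ier2 and Nr4a2 had differences of -0.19 and -0.44. At 18 h none of the 8 was without overlap in either direction, where 2.70% of all genes were with OA higher and 4.26% with OA lower, and differences lay between -0.41 for Egr2 and 0.79 for Ier3. Averaged over all 6 times the 8 differences were above 0, as were 44.5% of all genes. Of the 7 other than Egr2, 3 had an unadjusted p under 0.05 (Egr1, Klf4 and Klf6), as had 5.71% of all genes in that direction. None of the 8 passed after adjustment (smallest limma adjusted p = 0.300). The shares of all genes given here include genes dimmer than these 7. Of the genes well above background on at least 15 arrays, 56.3% were above 0 in the mean of 6 times.

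**Figure D3:**
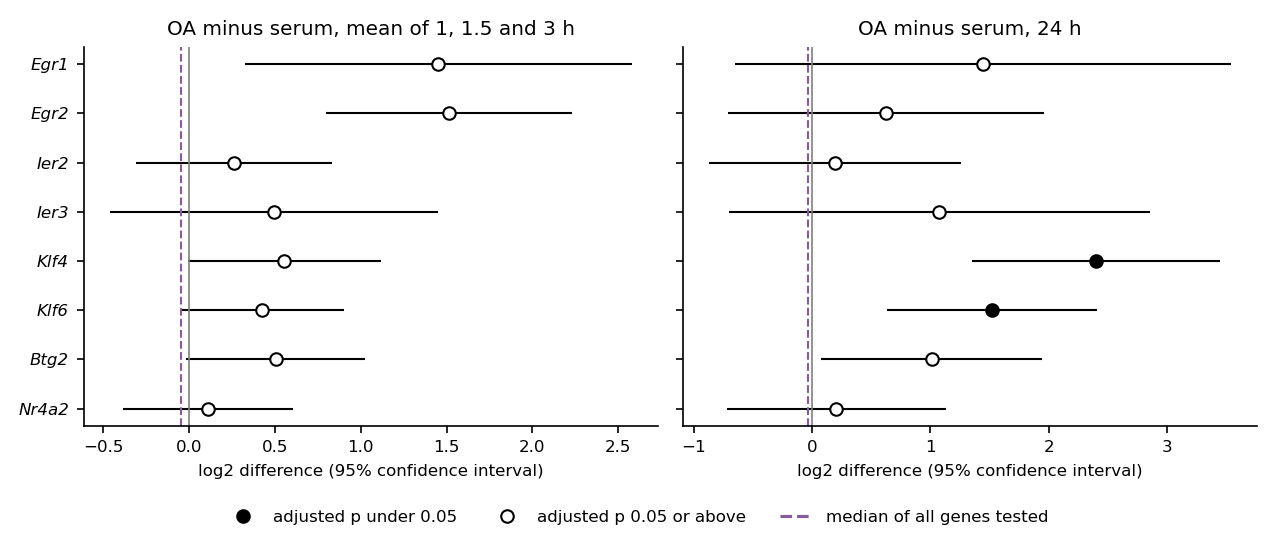
Difference in log2 level, OA minus serum, of the 8 tested genes with 95% confidence intervals, for the mean of 1, 1.5 and 3 h (left) and for 24 h (right). The dashed line is the median of all genes tested, and filled points have an adjusted p under 0.05. Egr2 and Egr1 have the highest early values (1.51 and 1.45), and Klf4 and Klf6 are the filled points at 24 h.

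Time since injection was set against level within each treatment. In OA mice 18 and 24 h minus the 4 earlier times gave -1.40 for Egr1 (SE 0.56, limma adjusted p = 0.255), -0.74 for Ier3, -0.43 for Nr4a2, -0.38 for Egr2 and -0.25 for Ier2, and 0.55 for Klf4, 0.44 for Klf6 and 0.24 for Btg2. In serum mice the same contrast gave -1.50 for Egr1 (SE 0.69, adjusted p = 0.470 in limma) and -1.45 for Ier3 (SE 0.58, adjusted p = 0.388), between -0.52 and -0.05 for the other genes, and 0.67 for Egr2. Of all genes, 0.119% were higher and 0.0437% lower late in OA mice, and 0.0398% higher and 0.115% lower late in serum mice, and none of the 8 was among them. In an F test over the 6 times in OA mice, Egr1, Ier2 and Btg2 had an unadjusted p under 0.05, as had 18.3% of all genes. Egr2 had one too, which is no support, because its probe passed the filter mainly through OA arrays. After adjustment none of the 8 passed, against 0.171% of all genes in OA mice and 0.0596% in serum mice. Leaving out Egr2 (0.106), the smallest limma adjusted p was 0.112, for Egr1 in OA mice. Whether the OA effect differed between times was tested too, and none of the 8 passed, against 0.00795% of all genes, Klf4 being nearest (limma adjusted p = 0.230).

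The genes varied together to different degrees over the 30 arrays. Egr1 followed Ier2 (Pearson r = 0.84), Ier3 (0.77) and Btg2 (0.70). Klf4, Klf6 and Btg2 followed each other at 0.78 to 0.83. Klf4 followed Ier3 at 0.23 and Ier2 at 0.28. Taken as deviations from the 12 group means, Egr1 and Ier2 stood at 0.76 and the Klf4, Klf6 and Btg2 pairs at 0.72 to 0.79, and Egr1 with Btg2, Egr1 with Klf6 and Ier2 with Btg2 also stood at 0.72, while Nr4a2 reached no more than 0.21 with any of them. These correlations are descriptions, and their points share arrays, scaling and RNA quality.

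**Figure D4:**
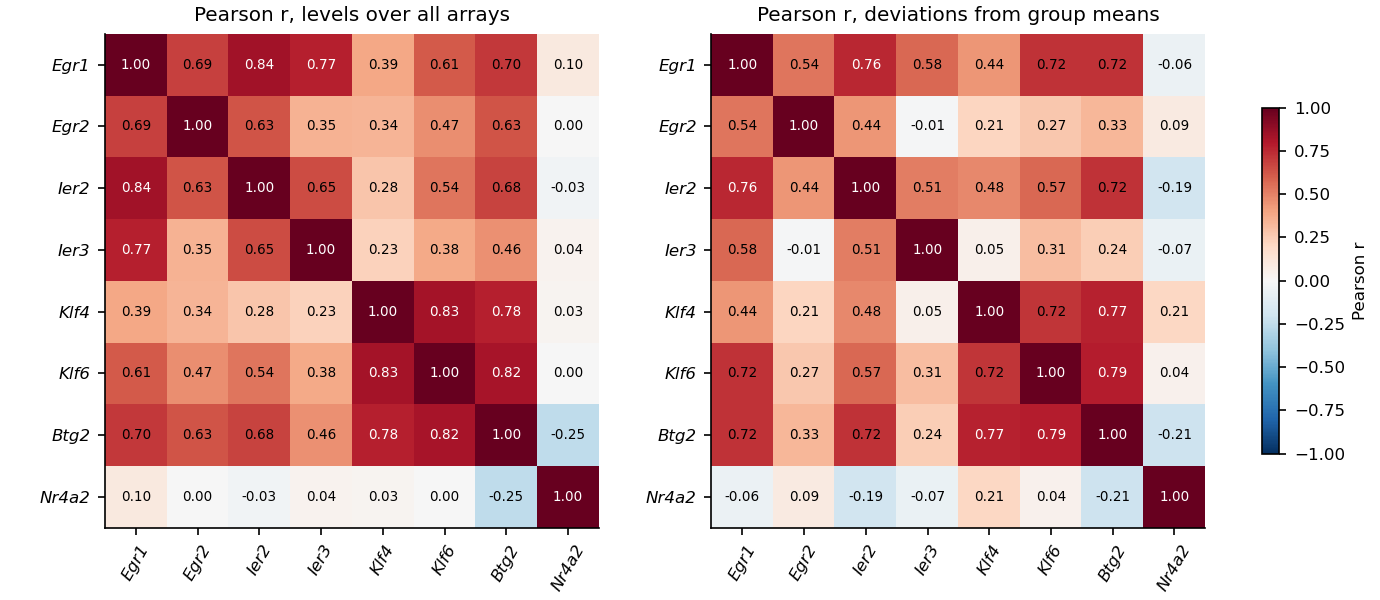
Pearson r between the 8 tested genes over the 30 arrays (left) and between deviations from the 12 group means (right), with the colour scale from -1 to 1. Klf4, Klf6 and Btg2 stand at 0.72 to 0.83 with each other in both panels, Egr1 and Ier2 at 0.84 and 0.76, Egr1 with Btg2 at 0.70 and 0.72, and Nr4a2 between -0.25 and 0.21 with every gene.

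Over the 30 arrays the mean of the 12 neutrophil markers had r = 0.84 with Ier3, 0.75 with Egr1 and 0.72 with Ier2, and 0.10 with Klf4. The mean of the monocyte markers had r = 0.80 with Klf4, 0.79 with Klf6 and 0.74 with Btg2, and that of the B cell markers 0.71, 0.67 and 0.84 with these 3 genes. The mean of the 6 lung markers had r = -0.83 with Klf4, -0.74 with Klf6 and -0.71 with Btg2. The long intergenic RNA signal had r = -0.83 with Btg2, -0.81 with Klf6 and -0.79 with Klf4, and -0.25 with Ier3.

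The genes most like each of the 8 over the arrays were listed by Pearson r with Spearman's rho. For Egr1 they were the cytokine gene Il1b (r = 0.925, rho = 0.938), Fos (0.923 and 0.948) and Ptgs2 (0.919 and 0.917), which encodes cyclooxygenase-2. For Egr2 they were Rabl2 (0.738 and 0.748), Ptgs2 (0.730 and 0.726) and Ctsk (0.724 and 0.754). For Ier2 they were Junb (0.903 and 0.907), Marcksl1 (0.892 and 0.871) and Spi1 (0.873 and 0.851), the last encoding the myeloid factor PU.1. For Ier3 they were Trem3 (0.905 and 0.897), Ppp1r3d (0.902 and 0.889) and Bst1 (0.894 and 0.891). For Klf4 they were Tsn (0.921 and 0.924), Akap11 (0.915 and 0.891) and Gmfb (0.915 and 0.860). For Klf6 they were 1810037I17Rik (0.926 and 0.877), Ier3ip1 (0.915 and 0.827) and Nfe2l2 (0.907 and 0.816). For Btg2 they were Ppp3ca (0.961 and 0.950), Msn (0.958 and 0.945) and Prkcb (0.951 and 0.897), over 29 arrays. For Nr4a2 the best match was Rnf214 (0.639 and 0.624), followed by Prr3 (0.595 and 0.592) and Rwdd3 (0.578 and 0.577), which are lower than for any other gene of the 8.

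Other genes of the same pathways were counted in 6 lists. Over 1, 1.5 and 3 h none of their members passed the test, as no gene of the array did. The medians were 0.23 for 15 family relatives, 0.19 for 15 EGR corepressors and SRF pathway factors and 0.30 for 10 FOS, JUN and ATF genes. They were 0.43 for 16 feedback inhibitors of MAP kinase and NF-kB, 0.40 for 21 other rapidly induced genes and 0.45 for 10 p53 targets. The median was -0.05 for all genes tested and 0.12 for those well above background on at least 15 arrays. The smallest unadjusted p values among the list members were those of Maff (1.40, SE 0.30), a small MAF factor, Atf3 (0.92, SE 0.28), a stress-induced ATF factor, and Zfp36 (1.26, SE 0.39), which destabilises cytokine messages, with limma adjusted p values of 0.139 to 0.141.

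At 24 h 13.1% of all genes were called higher in OA mice than in serum mice and 16.6% lower. These shares include dim genes. Of the genes well above background on at least 15 arrays, 65.8% had differences above 0, against 49.3% of all genes. Of the family relatives 6 of 15 were called higher: Nr4a1 (2.94), Klf10 (1.79), Klf9 (1.74), Tob1 (1.41), Klf3 (1.3) and Tob2 (0.92). Of the feedback inhibitors 7 of 16 were higher: Zfp36 (2.03), Dusp4 (2.00), Dusp2 (1.83), Tnfaip3 (1.62), Spred2 (1.61), Dusp6 (1.27) and Zfp36l1 (1.26). Spry2, a further inhibitor of receptor tyrosine kinase signalling, was lower by 2.06. Nab2, a corepressor of EGR factors, was higher by 1.43 and Elk3 by 1.35. Mkl1, now Mrtfa and a coactivator of SRF, was higher by 1.03, which made 3 of 15. Atf3 (2.38) and Jun (1.19) were 2 of 10. Of the other rapidly induced genes 6 of 21 were higher: Rgs1 (1.83), Rgs2 (1.69), Csrnp1 (1.38), Sgk1 (1.37), Socs3 (1.3) and Mcl1 (1.15). Of the p53 targets 3 of 10 were higher, Zmat3 (1.83), Mdm2 (1.13) and Bax (1.05). These calls rest on the same 2 serum arrays as those of Klf4 and Klf6. In serum mice late times against early ones, Socs3, an inhibitor of cytokine signalling, was the single called member of these 6 lists, and it fell by 1.76 (SE 0.33, limma adjusted p = 0.0357).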

How the data were processed

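Per the file headers, the deposited values are Agilent Feature Extraction 10.5.1.1 intensity readings of 1-colour arrays with 62976 spots. The processed signal was used, and after log2 the 75th percentile of non-control probes on that array was subtracted. The authors' deposited log2 table was an alternative, and how it was scaled and background-corrected is not stated in those sources. Control spots and outlier spots were left out. A probe was kept if well above background on at least 3 of 30 arrays (35800 of 55681 probes), and the brightest kept probe stood for a gene. A model with 12 groups was fitted with limma 3.58.1 in R 4.3.3 (18 residual degrees of freedom), with Benjamini-Hochberg adjustment over all genes, two-sided, at 0.05, and the script was tested on simulated data. With this few arrays per group precision is limited. Members and lists were chosen with earlier results of these data known. Genes named are the 10 members, pathway genes called in any contrast, the 3 smallest p values of a contrast described, up to 2 markers per cell list and each member's 3 closest genes. Alternatives changed scaling, background, filter, probe choice, slide or replicate block, arrays and covariate.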

Additional observations from a re-analysis of the deposited data

Results flagged for a closer look

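In 4 genes every OA mouse lay above the serum mice at some times and below the single serum mouse at 4 h. Egr1 differed by 1.28 at 1.5 h and 1.39 at 3 h, against -0.42 at 4 h. Ier3 differed by 1.29 at 3 h and -0.57 at 4 h. Klf6 differed by 0.42 at 3 h and 1.52 at 24 h, against -0.68 at 4 h. Btg2 differed by 0.16 at 1.5 h and 0.82 at 3 h, against -0.86 at 4 h. These pairs of times were not tested against each other, and the F test of the OA effect between times gave adjusted p values of 0.356 to 0.890 for these 4 genes in limma. At 4 h 39.7% of all genes had both OA arrays below the serum array, and 1 of the 2 OA arrays there is among the 3 that stand apart.

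Egr3 fell outside the tests, and 1 array showed it above background. Its level was -1.18 on OA 4 h replicate 2, against -3.48 on the serum array of that time. That array had the most outlier spots, 1408.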

How the results depend on the processing

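Of 31 member differences examined under 13 alternative settings and with each of the 30 arrays left out in turn, 22 kept their sign throughout. The 31 were a chosen part of the member differences, with none at 4 or 18 h. At 1 and 1.5 h they held only Egr1 and Egr2, and at 3 h they left out Ier2 and Nr4a2, both below 0. So 22 of 31 is not a rate for all member differences. The number of members past the threshold at 24 h was 2, and became 3 with normexp, which added Btg2 (1.12, limma adjusted p = 0.0435), 1 with quantile normalization and 0 with slide as a fixed block, with the long intergenic RNA covariate and without the 3 arrays under 0.9. Over the mean of 1, 1.5 and 3 h it was 0, and became 3 with normexp. With single arrays left out it ran between 0 and 3 at 24 h and between 0 and 1 over the early mean, where Egr2 passed without serum 1 h replicate 3. The count of all genes called at 24 h, 7483, became 13124 with no filter, 4008 with the filter at 15 arrays, 4839 with the authors' values, 9 with the slide block, 2 with the covariate and 47 without the 3 arrays, and ran between 38 and 12952 with arrays left out. The early count of 0 became 7028 with normexp and 128 without serum 1 h replicate 3, where Egr2 was 1.60. Sign changes were all in values past no test. With the median of always-detected probes, which moves the all-gene median at 24 h by -0.52, Ier2 at 24 h was -0.32, Nr4a2 -0.32 and its early mean -0.045. With quantile normalization Ier2 at 24 h was -0.25, and with the authors' values -0.20. With normexp Egr2 was -0.0059 at 1 h, -0.11 at 3 h and -0.32 at 24 h, and Nr4a2 was -0.26 at 24 h and -0.11 early. With the mean of a gene's probes Nr4a2 was -0.27 at 24 h and -0.25 early. With the slide block Ier2 at 24 h was -0.0063 and Nr4a2 early -0.15. With the covariate, values at 24 h were -0.33 for Egr1, -0.080 for Egr2, -0.78 for Ier2 and -0.18 for Btg2, and Ier2 early was -0.062. Without the 3 arrays Ier2 at 24 h was -0.16. With arrays left out, Ier2 at 24 h ran between -0.16 and 0.55, Nr4a2 at 24 h between -0.49 and 0.90 and Nr4a2 early between -0.0021 and 0.22. Replicate numbers were not taken as pairs. Arrays of the same time and number had correlations of -0.53 to 0.42 over 12 pairs, with 4 over 0.1. Groups this small cannot settle whether the numbers pair the samples. With the replicate block 2 members passed at 24 h, where 5144 genes did. The causes were not tested. Groups of 1 to 3 arrays and dim probes (Egr2, Egr3, Nr4a3) limit what could be seen.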
